A study of Oryza sativa with 6 samples.

Results

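The plasma membrane intrinsic proteins (PIPs) of rice were followed in panicles of plants that overexpress OsEXPA7 and of wild-type plants. The group comprised 10 of the 42189 loci in the deposited expression table, chosen by locus identifier: 3 genes of the PIP1 subfamily and 7 of the PIP2 subfamily. Gene names are given in the hyphenated form of the RefSeq gene table, in which PIP1-1 stands for OsPIP1;1. That table names all 10 genes and places each on the chromosome that its locus identifier names, namely chromosomes 2, 4, 7 and 9. RNA came from 3 panicle samples of the overexpression genotype and 3 of the wild type, all in the cultivar Nipponbare, grown with a treatment recorded as natural in both groups. The promoter of the transgene, the number of independent lines, the plants behind each replicate, and the age and stage of the panicles are not stated by the labels. Expression was given as TPM, a level scaled for transcript length and to the same total in every library.

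PIPs are aquaporins, channels that assemble as tetramers in the plasma membrane and let water cross it along the osmotic gradient. Some members also pass hydrogen peroxide, carbon dioxide or metalloids such as arsenite. PIP2 proteins of many plants conduct water when made alone in frog oocytes, whereas PIP1 proteins, as shown in maize, generally reach the plasma membrane together with a PIP2 partner. In growing plant tissue the uptake of water drives cell enlargement while the wall yields, and expansins such as OsEXPA7 loosen the wall.

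The libraries were first checked against their labels. OsEXPA7, paired with the locus LOC_Os03g60720 from general knowledge, measured 5077, 4323 and 4946 TPM in the overexpression libraries, against 964, 959 and 882 TPM in the wild-type libraries. Its log2 change was 2.35 ± 0.06 (SE; limma, adjusted p = 1.54e-08). Correlations of log2(TPM + 1) across loci were 0.991 to 0.993 within a genotype and 0.948 to 0.953 between genotypes. All 12 floral organ identity loci used as panicle markers passed the filter on low values, and their summed level was 1278 to 1300.2 TPM in the overexpression libraries and 1157 to 1167 TPM in wild type. Of these 12 loci, 5 were higher in the overexpression libraries, 1 was lower and 6 did not pass (limma). Over all tested loci 25.3% were higher and 17.5% lower. The floral log2 changes went up to 0.93 for MADS16, named after its values were seen. It stood at 145 TPM in the overexpression libraries and 76.0 TPM in wild type. The 2 endosperm storage loci together stayed at 1.16 to 1.38 TPM in the overexpression libraries and at 0.726 to 1.45 TPM in wild type. Read depth is unknown, because TPM does not keep it.

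PIP transcripts made up a larger part of the transcript pool in the overexpression panicles. They took 0.676%, 0.619% and 0.659% of all TPM in the overexpression libraries, against 0.535%, 0.535% and 0.491% in the wild-type libraries. The groups did not overlap. The mean share was 0.651% ± 0.029 in the overexpression libraries and 0.520% ± 0.025 in wild type (SD, n = 3 each), a ratio of 1.25. No p-value was computed for this sum, since the genes were chosen with earlier results of these data known. Under median-of-ratios scaling the ratio was 1.20 and after quantile normalization it was 1.36, and with the OsEXPA7 locus taken out of the total it was 1.26. In bulk panicles, more RNA per cell and more cells that use a gene cannot be told apart.

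**Figure D1:**
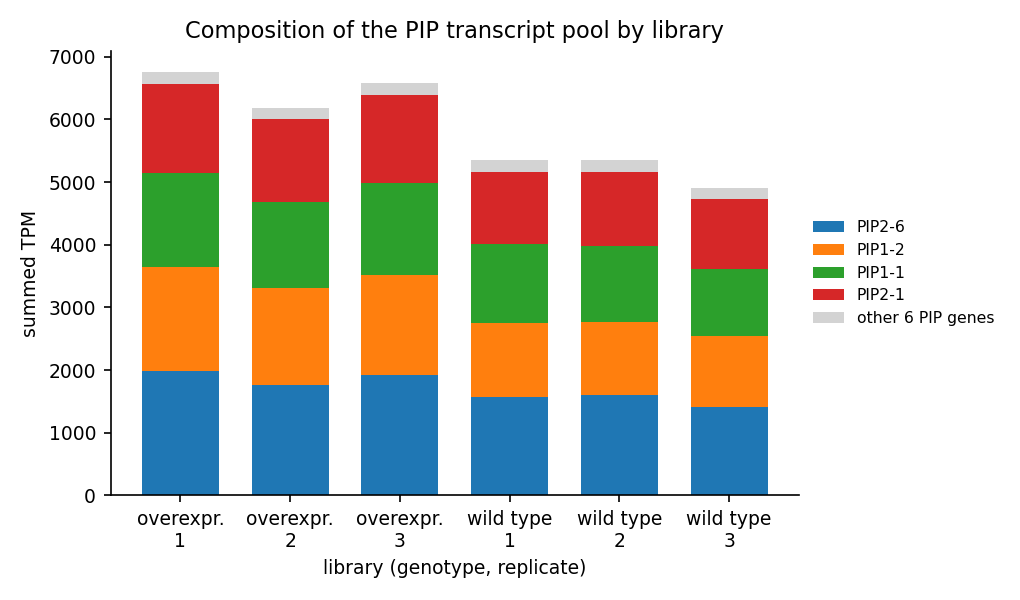
Summed TPM of the PIP genes (vertical axis) in the 3 overexpression and 3 wild-type libraries (horizontal axis), with the 4 most abundant genes as colored segments and the other 6 in grey. The overexpression bars stand between 6186 and 6757 TPM, above the wild-type bars at 4909 to 5349 TPM, and the grey segment is small in every library.

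Most of this pool came from 4 genes. PIP2-6, PIP1-2, PIP1-1 and PIP2-1 together held 97.1%, 97.0% and 97.0% of PIP transcripts in the overexpression libraries and 96.4%, 96.6% and 96.4% in the wild-type libraries. These 4 genes also gave nearly all of the added level: their sum was 6317 ± 286 TPM in the overexpression libraries and 5018 ± 248 TPM in wild type. The other 6 genes summed to 192 ± 7.65 TPM in the overexpression libraries and 183 ± 7.21 TPM in wild type (SD, n = 3), and there the groups overlapped.

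Of the 10 genes, 9 reached at least 1 TPM in every library and were tested, and PIP2-3 was not. In the fit over all 23395 tested loci (limma on log2(TPM + 1), Benjamini-Hochberg adjusted p under 0.05), 6 PIP genes were higher in the overexpression libraries, 2 were lower and 1 did not pass. Across all tested loci 42.8% passed, 25.3% higher and 17.5% lower, so calls were frequent throughout the transcriptome. For 8 of the 9 PIP genes, 6 of them higher, the libraries of the genotypes were fully separate, as they were for 53.7% of all tested loci, 31.3% higher and 22.5% lower. The median log2 change was 0.30 over the 9 tested PIP genes and 0.06 over all tested loci. None of the 9 changed as much as 2-fold. Of all calls 59.1% were higher as deposited, against 45.7% after quantile normalization. Each tested PIP gene kept its direction under all 14 alternatives of the fit. The alternatives of filter, variance model and replicate block leave each log2 change as it is, so they could not reverse a direction. How many of all tested loci kept their direction was not counted.

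**Figure D2:**
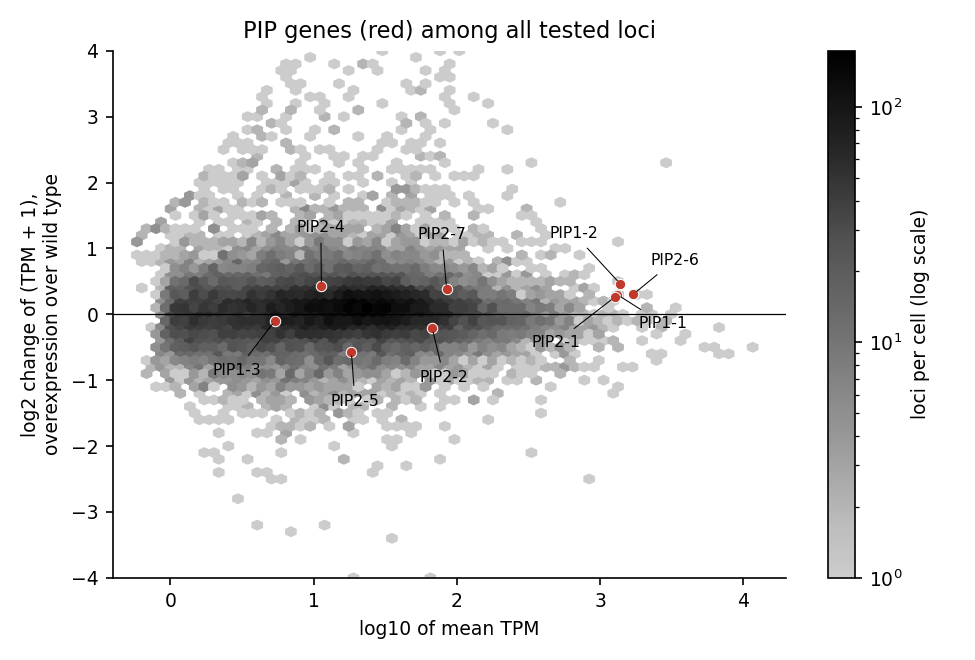
Log2 change of (TPM + 1), overexpression over wild type (vertical axis), against the log10 of the mean TPM of the 6 libraries (horizontal axis) for all tested loci, in grey by density, with the 9 tested PIP genes in red. The 44 loci with changes beyond 4 log2 units lie outside the frame, and the 4 abundant PIP genes toward the right all lie above 0.

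PIP2-6 was the most abundant PIP gene in every library. In transport assays its protein has been reported to carry arsenite besides water. It measured 1991, 1765 and 1914 TPM in the overexpression libraries, against 1566, 1602 and 1415 TPM in wild type. All overexpression libraries lay above all wild-type libraries, with a mean 23.7% higher. The log2 change was 0.31 ± 0.06 (SE; limma, adjusted p = 0.00316). Among all loci of the table it ranked 26 to 28 by TPM in the overexpression libraries and 34 to 38 in wild type.

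PIP2-1, which in rice roots is known to contribute to water uptake, measured 1413, 1313 and 1401 TPM in the overexpression libraries, against 1138, 1187 and 1123 TPM in wild type. The groups did not overlap, and the mean was 19.7% higher with overexpression. Its log2 change of 0.26 ± 0.04 (SE; limma, adjusted p = 0.00129) was the smallest rise among the 6 PIP genes that rose. The ratio of PIP2-6 to PIP2-1 within a library was 1.41, 1.34 and 1.37 in the overexpression libraries and 1.38, 1.35 and 1.26 in wild type, and the groups overlapped.

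PIP1-2 showed the steepest rise of the abundant genes. This PIP1 gene measured 1646, 1548 and 1601 TPM in the overexpression libraries, against 1187, 1167 and 1121 TPM in wild type. The gap between the lowest overexpression and the highest wild-type library was wider than the whole range within either genotype. Its mean was 38.0% higher and its log2 change 0.46 ± 0.04 (SE; limma, adjusted p = 2.61e-05), the lowest adjusted p in the family.

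PIP1-1, also called RWC1, measured 1510.3, 1376 and 1473 TPM in the overexpression libraries, against 1264, 1211 and 1072 TPM in wild type. The groups did not overlap, and wild-type replicate 1 came nearest to the overexpression libraries. The mean was 22.9% higher, with a log2 change of 0.30 ± 0.06 (SE; limma, adjusted p = 0.0051).

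The rises of PIP1-1, PIP2-1 and PIP2-6 depended on how libraries were scaled. With median-of-ratios scaling their log2 changes were 0.24, 0.20 and 0.24, and none passed (limma, adjusted p = 0.0777, 0.0603 and 0.0674). The scaled libraries of PIP1-1 overlapped, at 1305 TPM in replicate 2 of overexpression and 1313 TPM in replicate 1 of wild type. PIP1-2 passed under that scaling as well (log2 change 0.40, limma adjusted p = 0.00269). The standard errors were larger there than as deposited, 0.10 against 0.06 for PIP1-1. After quantile normalization, all 6 rises passed. That step assigns values by rank and gave PIP1-1 the same value, 1529, in every overexpression library. It thus took away replicate spread that the deposited values hold.

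**Figure D3:**
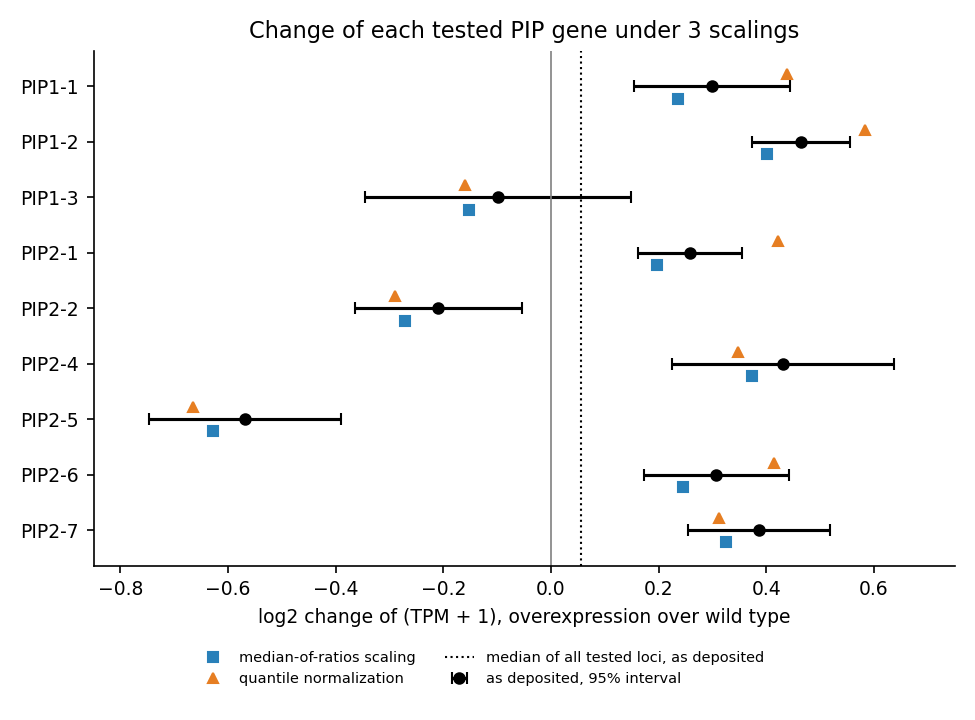
Log2 change of (TPM + 1), overexpression over wild type (horizontal axis), of the 9 tested PIP genes as deposited (black, with 95% intervals of the moderated fit), with median-of-ratios scaling (blue squares) and after quantile normalization (orange triangles). The 6 rises and 2 falls keep their sides of 0 under all 3 scalings, and the interval of PIP1-3 spans 0.

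As deposited, the abundant PIP genes moved against the run of other abundant transcripts. Of the 60 loci that averaged 1000 TPM or more, 9 were higher in the overexpression libraries (15%) and 29 were lower (48.3%). Of the 9 higher ones, 4 were these PIP genes, and OsEXPA7 was another. The 60 also held 2 other listed aquaporins. The tonoplast gene TIP1-1 was higher, with a log2 change of 0.26 like that of PIP2-1, and NIP1-1 was lower, at -0.40 (limma). With median-of-ratios scaling 3 of the 60 were higher, PIP1-2 among them, and 27 lower. After quantile normalization 18 were higher and 19 lower. The 96 loci other than PIP genes among the 100 most abundant held 15.7% ± 0.541 of all TPM in the overexpression libraries and 18.5% ± 0.634 in wild type (SD, n = 3 each). Set against those 96 loci in the same library, the PIP sum was 4.17%, 4.09% and 4.20% in the overexpression libraries and 2.82%, 2.87% and 2.76% in wild type. This ratio does not depend on a common scaling factor, and its spread within a genotype was small beside the gap between them. The gap, 1.48 as a ratio of means against 1.25 for the PIP share, also takes in the lower share of the 96 loci. OsEXPA7 is one of those loci.

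Within each genotype the abundant PIP genes varied together. Replicate 2 was the lowest overexpression library for all 4 of them, and replicate 3 the lowest wild-type library for all 4. The same libraries had the lowest share of TPM in the 100 most abundant loci, at 15.7% in overexpression replicate 2 (16.3% and 16.9% in the other overexpression libraries) and at 18.2% in wild-type replicate 3 (19.2% and 19.5% in the other wild-type libraries). They were also the lowest of their genotype for OsEXPA7. Over the 9 tested genes, overexpression replicate 2 was lowest in 7, while wild-type replicates 2 and 3 were lowest in 4 and 5.

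PIP2-7 and PIP2-2 formed a second tier, and they moved in opposite directions. Among all tested loci between 50 and 100 TPM on average, 31.6% were higher and 21.7% lower in the overexpression libraries. PIP2-7, reported in rice to affect chilling tolerance, measured 99.8, 92.7 and 96.2 TPM in the overexpression libraries, against 78.1, 70.6 and 71.5 TPM in wild type. The mean was 31.0% higher, with a log2 change of 0.39 ± 0.06 (SE; limma, adjusted p = 0.000767). PIP2-2, which has been reported to pass hydrogen peroxide, measured 66.0, 58.0 and 63.3 TPM in the overexpression libraries, against 74.2, 75.2 and 67.4 TPM in wild type. The 2 groups of PIP2-2 lay close together without overlapping, and its mean was lower with overexpression. Its log2 change was -0.21 ± 0.07 (SE; limma, adjusted p = 0.035), the highest adjusted p of the 8 genes that passed. That call was lost under 7 of the 14 alternatives, with adjusted p between 0.0171 and 0.118 over all 14 (limma). Leaving out overexpression replicate 2 or 3, or wild-type replicate 1 or 2, each ended it, with limma adjusted p of 0.0972, 0.0739, 0.106 and 0.118. So did the model with replicate number as a block (adjusted p = 0.0558), no variance trend (0.0713) and no filter on low values (0.0555).

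**Figure D4:**
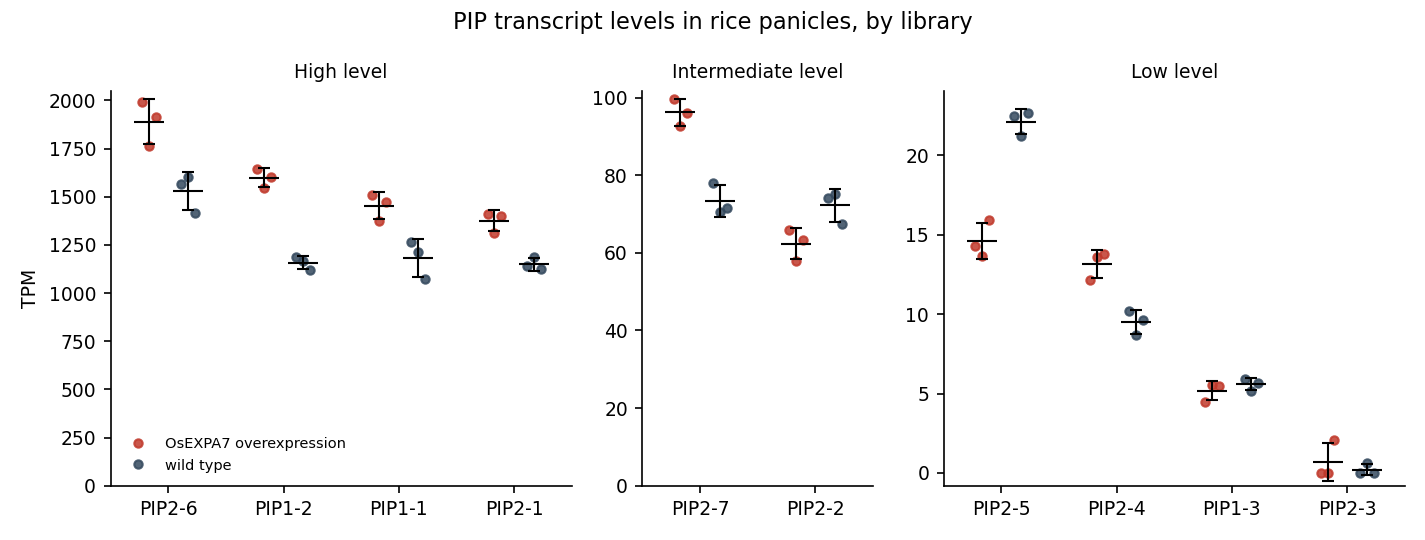
TPM (vertical axes, a separate linear scale per panel) of the 10 PIP genes in overexpression (red, left of each pair) and wild-type libraries (dark blue, right), with mean and SD in black, n = 3 each. The panels hold genes of high, intermediate and low level. PIP2-2 and PIP2-5 lie lower in the red libraries, while the groups overlap for PIP1-3 and PIP2-3.

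The remaining genes were expressed at low level. Of the tested loci that averaged 5 to 25 TPM, 25.2% were higher and 15.2% lower in the overexpression libraries. PIP2-4, PIP2-5 and PIP2-1 lie beside one another on chromosome 7 (LOC_Os07g26630, LOC_Os07g26660 and LOC_Os07g26690), and the RefSeq table gives the same order. PIP2-5, known in rice mainly as a root aquaporin, measured 14.3, 13.7 and 15.9 TPM in the overexpression libraries, against 22.5, 21.2 and 22.7 TPM in wild type. This was the largest change of any tested PIP gene in either direction, with a mean 33.9% lower in the overexpression libraries and groups far apart. Its log2 change was -0.57 ± 0.08 (SE; limma, adjusted p = 0.000462). PIP2-4, reported to carry arsenite in transport assays, measured 12.2, 13.6 and 13.8 TPM in the overexpression libraries, against 10.2, 8.71 and 9.62 TPM in wild type. Its mean was 38.5% higher and its log2 change 0.43 ± 0.09 (SE; limma, adjusted p = 0.00485).

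Neighbours on chromosome 7 thus differed in direction: PIP2-4 and PIP2-1 rose, and PIP2-5 between them fell. The level of PIP2-5 relative to PIP2-4 in the same library was 1.17, 1.00 and 1.16 in the overexpression libraries, against 2.20, 2.44 and 2.36 in wild type. Relative to PIP2-1 it was 0.0101, 0.0104 and 0.0114 in the overexpression libraries and 0.0198, 0.0179 and 0.0202 in wild type. Both ratios are free of library scaling. That they separated the genotypes follows from the levels above, since PIP2-5 was lower and PIP2-4 and PIP2-1 were higher, each without overlap. The ratio of PIP2-4 to PIP2-1 did not separate the genotypes, at 0.0086, 0.0104 and 0.0098 in the overexpression libraries and 0.009, 0.0073 and 0.0086 in wild type. The 3 other loci listed between these genes reached at most 0.0953 TPM, and 2 of them were listed at 0 in every library. The nearest listed loci outside the group, LOC_Os07g26610 and LOC_Os07g26700, had log2 changes of -0.06 and -0.15 and did not pass (limma, adjusted p = 0.412 and 0.154). How reads shared by similar PIP sequences were assigned is not stated, which leaves the low values of PIP2-4 and PIP2-5 beside the abundant PIP2-1 uncertain.

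**Figure D5:**
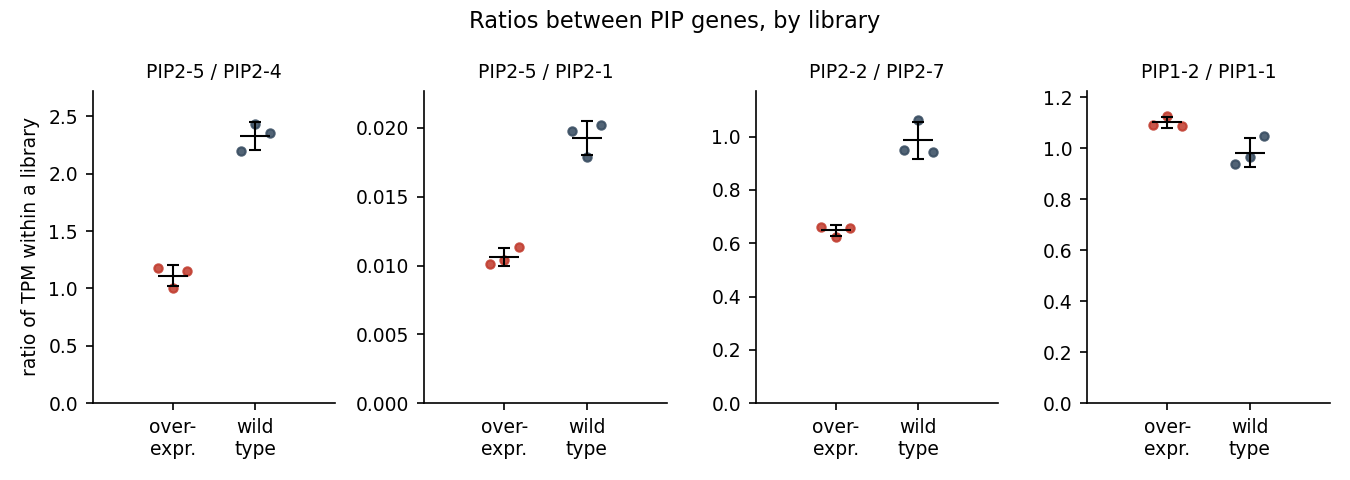
Ratio of the TPM of 2 PIP genes in the same library (vertical axes from 0, a separate scale per panel) in overexpression (red, left) and wild-type (dark blue, right) libraries, with mean and SD in black, n = 3 each. The PIP2-5 to PIP2-4 ratio lies between 1.00 and 1.17 with overexpression and between 2.20 and 2.44 in wild type. The genotypes do not overlap in any panel, but the ratios were picked after the levels had been seen. Ratios that overlapped, such as PIP2-4 to PIP2-1, are not shown.

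PIP1-3, also called RWC3 and studied in rice for its part in drought avoidance, measured 4.48, 5.54 and 5.49 TPM in the overexpression libraries, against 5.95, 5.17 and 5.66 TPM in wild type. The groups overlapped. The log2 change was -0.10, with a 95% interval from -0.34 to 0.15 (limma, adjusted p = 0.495), so a modest change in either direction is within the interval. PIP2-3, another gene known from rice roots, was listed at 0, 0 and 2.09 TPM in the overexpression libraries and at 0, 0.644 and 0 TPM in wild type. It was above 0 in 1 library of each genotype, and no fold is given.

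The order of mean levels within the family differed between the genotypes at 1 place. In the overexpression libraries it ran PIP2-6, PIP1-2, PIP1-1, PIP2-1, PIP2-7, PIP2-2, PIP2-5, PIP2-4, PIP1-3 and PIP2-3. There the ranges of PIP1-1 and PIP2-1 overlapped, as did those of PIP2-5 and PIP2-4, while all other neighbours in the order were separate. In wild type PIP1-1 stood before PIP1-2, but the ranges of PIP1-1, PIP1-2 and PIP2-1 overlapped, as did those of PIP2-7 and PIP2-2. PIP1-2 relative to PIP1-1 was 1.09, 1.13 and 1.09 in the overexpression libraries and 0.939, 0.963 and 1.05 in wild type. PIP2-2 relative to PIP2-7 was 0.662, 0.625 and 0.658 in the overexpression libraries and 0.951, 1.06 and 0.942 in wild type. These ratios, like those on chromosome 7, were singled out after the levels had been seen.

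The balance between the subfamilies moved little. PIP1 genes held 46.8%, 47.4% and 46.8% of PIP transcripts in the overexpression libraries, against 45.9%, 44.6% and 44.8% in wild type. The difference of 1.86 percentage points kept the groups apart. PIP1 transcripts summed to 3057 ± 118 TPM in the overexpression libraries and 2346 ± 132 TPM in wild type, a ratio of 1.30. PIP2 transcripts summed to 3453 ± 176 TPM in the overexpression libraries and 2855 ± 132 TPM in wild type (SD, n = 3 each), a ratio of 1.21. PIP1-2 was the abundant gene whose own part of the pool grew, to 24.6% ± 0.398 of PIP transcripts in the overexpression libraries, against 22.3% ± 0.522 in wild type. The part of PIP2-1 was 21.1% ± 0.201 in the overexpression libraries and 22.1% ± 0.792 in wild type, without overlap. PIP2-6 held 29.0% ± 0.468 in the overexpression libraries and 29.4% ± 0.562 in wild type, with overlap.

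Other aquaporins did not share one direction. Of 15 further aquaporin loci, 11 were tested, of which 4 were higher in the overexpression libraries, 5 were lower and 2 did not pass (limma), beside 25.3% higher and 17.5% lower over all tested loci. Their median log2 change was -0.19, while their summed level differed the other way. The 15 loci summed to 4709 ± 164 TPM in the overexpression libraries and 4311 ± 88.7 TPM in wild type (SD, n = 3 each), a ratio of 1.09, without overlap. The tonoplast intrinsic proteins (TIPs), which carry water across the vacuolar membrane, summed over 8 loci to 3493 ± 143 TPM in the overexpression libraries and 2806 ± 103 TPM in wild type (SD, n = 3 each). The summed TIP level relative to the summed PIP level was 0.537, 0.540 and 0.533 in the overexpression libraries and 0.533, 0.538 and 0.548 in wild type, with overlap between the genotypes. Among the 6 TIP loci tested, 3 were higher and 2 lower. The NIP group, named after nodulin 26 and including metalloid channels, had 3 tested loci, all lower, and its 4 loci summed to 1005 ± 17.6 TPM in the overexpression libraries and 1331 ± 18.4 TPM in wild type (SD, n = 3 each). The 2 loci of the small basic intrinsic proteins (SIPs) were both tested, with 1 higher and 1 not past the threshold, and summed to 209 ± 6.64 TPM in the overexpression libraries and 174 ± 4.75 TPM in wild type (SD, n = 3 each). PIP2-8, a PIP2 gene outside the 10, was low, at 1.97, 0.929 and 1.51 TPM in the overexpression libraries and 0.0677, 0 and 0.142 TPM in wild type. The overexpression libraries lay above wild type without overlap, but the gene did not reach 1 TPM in 3 libraries and was not tested.

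Marker lists of other cell states also differed in level between the genotypes, as did some of the floral loci above. Over all tested loci 25.3% were higher and 17.5% lower, and lists of 2 to 4 loci are too short to set against that. The 2 cell division loci summed to 93.6 to 97.6 TPM in the overexpression libraries and 68.1 to 72.5 TPM in wild type, and both were higher. The 2 chlorophyll-binding protein loci summed to 469.96 to 521 TPM in the overexpression libraries and 795 to 863 TPM in wild type, and both were lower. The 4 tapetum and pollen loci summed to 497 to 517 TPM in the overexpression libraries and 1693 to 1787 TPM in wild type, with 1 higher, 2 lower and 1 not past the threshold. Most of that last difference lay in C6, a lipid transfer protein gene singled out after its values were seen, at 261 TPM in the overexpression libraries and 1520.4 TPM in wild type. None of the loci in these 3 lists was at 0. The part of these lists and of the floral loci in the PIP levels was not tested.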

How the data were processed

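The authors deposited TPM values per locus for 6 panicle libraries, made from 1.4 ug of total RNA each with an mRNA kit, per the labels' protocols. No source used here states the aligner, quantifier or annotation. Per the submitters' processing notes the builds were GRCm38 and mm10, which are of the mouse and do not match rice locus identifiers. Libraries were grouped by title. Loci that reached 1 TPM in 3 or more libraries were tested as log2(TPM + 1) with limma 3.58.1 in R 4.3.3. The test was two-sided, with a variance trend and Benjamini-Hochberg adjustment over all loci tested (threshold 0.05). The fit was checked on simulated data with few changed loci and no difference in library scaling. That check cannot speak for data with many calls that depend on scaling. On the log2(TPM + 1) scale the change of low genes is understated. Sums and ratios used TPM directly, with no test. The labels call the replicates biological but name no separate plants, so the p-values reflect the spread among these samples, which may be technical. The PIP genes and all lists were chosen with earlier results of these data known, and all 10 PIP genes are named. Of 17 other aquaporins, 15 were kept, because the RefSeq gene table (assembly ASM3414082v1) names them on the chromosome and within 5 megabases of the place that the locus identifier implies at 580 bases per locus number. Marker lists followed the same rule. Alternatives covered scaling, pseudocount, filter, variance model, replicate block and each library left out.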

Additional observations from a re-analysis of the deposited data

How the results depend on the processing

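Against 8 PIP genes past the threshold, 6 higher and 2 lower, median-of-ratios scaling left 5, of which 3 were higher. Over all 23395 tested loci that scaling gave 10088 calls, 49.7% of them higher. The 2 lower PIP genes became 1 without a filter, without a variance trend and with the replicate block, in each case because PIP2-2 no longer passed. Leaving out 1 library gave 7 to 8 PIP genes, always 6 higher and 1 to 2 lower. PIP1-2, PIP2-4, PIP2-5 and PIP2-7 passed under all 14 alternatives of the fit. No tested PIP gene changed sign, which only the alternatives of scaling, pseudocount and left-out libraries could bring about. Quantile normalization moved the ratio of the summed PIP level to 1.36, from 1.25 as deposited, and that of the PIP2 sum to 1.31, from 1.21. Leaving out 1 library gave 1.22 to 1.28 for the total PIP share, 1.18 to 1.24 for the PIP2 sum and 1.59 to 2.28 percentage points for the PIP1 part. Without PIP2-6 the total ratio was 1.26. The count of all loci past the threshold was 7824 to 10181, against 10002. The labels number the replicates alike in both genotypes, but deviations of same-numbered libraries correlated at only 0.097, -0.0988 and -0.0685, so the numbers were not taken as pairs. With the replicate block 9264 loci and 7 PIP genes passed. Depth is unknown, which limits what can be said of PIP2-3.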
